A study of Homo sapiens with 8 samples.

Results

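Long intergenic non-coding RNAs (lincRNAs) are transcripts that lie between protein-coding genes and are not translated into a known protein. The arrays of this series carry a set of lincRNA probes that the array maker designed beside its probes for coding transcripts, and the signal of these lincRNA probes is described here in MCF10A cells with and without p53. Members were selected on their measured signal: a probe was taken when it was not a control, when its name began with A_19_P and when the scanner software marked it as well above background on at least 1 of 8 arrays. Of 8278 lincRNA probes, each printed in 1 spot, 4874 met this rule, and 4873 of them had an unflagged spot on all 8 arrays. They were part of 42405 non-control probes, of which 28947 were well above background on at least 1 array.

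MCF10A is a line of human breast epithelial cells that forms no tumours. Cells labelled p53+/+ and p53-/- were harvested untreated at 0 h or at 12, 24 and 48 h after treatment with 0.5 µg/ml of doxorubicin (adriamycin, a drug that damages DNA) for 2 h, by the labels. The dose in the paper's methods differs from that of the labels. Each genotype and time had 1 array, and all 8 were on 1 slide, with the p53-/- arrays in one column of positions and the p53+/+ arrays in the other, so genotype and column cannot be told apart. How the p53-/- line was made and whether it is 1 clone are not given in the sources used here.

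p53 is a transcription factor that DNA damage stabilises, and it binds DNA at a pair of half-sites near its target genes. Its targets include protein-coding genes for growth arrest and death, such as CDKN1A and MDM2, and a set of lincRNAs, of which PURPL, LINC-PINT, NEAT1 and PVT1 are known examples. PURPL, named as a p53-upregulated regulator of p53 levels, lowers p53 in turn.

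RefSeq promoters of 4 named transcripts whose probes passed the genotype comparison, picked after their values were seen and not for the size of the difference, are shown first. PURPL is shown because its promoter held a match. Each runs from 250 bases before to 50 bases after the annotated start on GRCh38.p14, 5′ to 3′ on the strand of the gene, with matches to the p53 half-site consensus in capitals. PURPL (chr5:27472042-27472341, plus strand) and AATBC (chr21:43812518-43812817, minus strand) were higher in treated p53+/+ cells, whereas STEAP1B-AS1 (chr7:22563087-22563386, plus strand) and LINC01085 (chr4:14111718-14112017, plus strand) were lower.
PURPL: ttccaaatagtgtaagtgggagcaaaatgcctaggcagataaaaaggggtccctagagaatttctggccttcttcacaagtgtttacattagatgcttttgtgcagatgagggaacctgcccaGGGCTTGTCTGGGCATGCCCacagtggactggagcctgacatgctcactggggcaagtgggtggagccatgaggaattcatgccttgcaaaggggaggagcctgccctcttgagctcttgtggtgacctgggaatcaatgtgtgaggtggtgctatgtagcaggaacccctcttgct
AATBC: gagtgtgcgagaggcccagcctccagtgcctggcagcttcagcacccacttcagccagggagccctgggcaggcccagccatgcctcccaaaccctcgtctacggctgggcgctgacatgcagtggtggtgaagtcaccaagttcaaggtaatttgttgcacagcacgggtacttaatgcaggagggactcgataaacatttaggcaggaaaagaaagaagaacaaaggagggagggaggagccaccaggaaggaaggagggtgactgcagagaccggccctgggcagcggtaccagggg
STEAP1B-AS1: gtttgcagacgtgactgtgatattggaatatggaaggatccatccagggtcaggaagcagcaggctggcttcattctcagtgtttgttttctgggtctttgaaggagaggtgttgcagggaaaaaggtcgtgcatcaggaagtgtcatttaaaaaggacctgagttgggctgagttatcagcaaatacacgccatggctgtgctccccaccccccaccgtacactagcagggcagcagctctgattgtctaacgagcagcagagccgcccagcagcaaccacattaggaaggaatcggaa
LINC01085: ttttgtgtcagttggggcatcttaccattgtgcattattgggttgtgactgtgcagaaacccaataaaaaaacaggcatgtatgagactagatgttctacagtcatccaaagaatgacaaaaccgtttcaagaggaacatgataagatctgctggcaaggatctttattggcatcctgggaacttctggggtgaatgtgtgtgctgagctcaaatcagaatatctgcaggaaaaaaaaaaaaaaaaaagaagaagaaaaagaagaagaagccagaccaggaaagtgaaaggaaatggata
The PURPL promoter held 2 adjoining half-sites with a spacer of 0 bases, the first beginning at position -127 from the start, which together make 1 full p53 site. The other 3 promoters shown held no match. Across 35116 RefSeq promoters of the same length, read on the printed strand since the half-site consensus is its own reverse complement, 6.63% held a half-site and 10 held a full site with half-sites 0 to 13 bases apart. Among the 38 named transcripts with a lincRNA probe that was higher in treated p53+/+ cells, 30 had a promoter in the table, and PURPL was the 1 with a half-site; among 24 named transcripts with a lower probe, 21 had a promoter and 0 had one. LINC-PINT (4 promoters), H19 and SNHG5 had promoters without a match. A match of letters is a description and not a bound site.

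The name of the probe set was checked against the accessions that the files give each probe. The files hold no coordinates or gene names for these probes, so a transcript here is an accession. For 2769 of the members (56.8%) the accession was the probe's own name, 544 had an Ensembl transcript, 509 a RefSeq non-coding transcript, 371 an EST cluster, 367 a GenBank or other accession and 122 an assembled TCONS transcript. Against the label, 191 members carried the accession of a RefSeq coding transcript, among them probes for MDM2, MDM4, STMN1, NASP, HIPK2 and H3-3A. A gene symbol could be given to 577 members, which shared 298 symbols; 388 of these probes belonged to lncRNA genes and 164 to protein-coding genes. Probes for coding transcripts are named as such below.

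The array labels were checked on genes outside the lincRNA set. CDKN1A, the p53 target that stops the cell cycle, was at 2.54 to 2.70 on the treated p53+/+ arrays and at -0.96 to -0.48 on the treated p53-/- arrays (log2 signal relative to the array's 75th percentile, the scale used throughout). On the untreated array labelled p53+/+ 0 h, MDM2 (-1.66) and CDH1, the epithelial cadherin (-3.13), lay near their p53-/- 0 h levels of -1.33 and -3.55. Treated p53+/+ arrays read 1.29 or more and 1.42 or more. Other genes differed between the 0 h arrays: CDKN1A read -1.14 against -2.97 in p53-/- cells, and LAMB3 7.03 against 5.98. Whether the label holds was not tested. The counts of probes that rose or fell in p53+/+ cells are given with the p53-/- 0 h array as baseline as well. Other changes in p53+/+ cells, and the interaction, are given from the array labelled p53+/+ 0 h alone. KRT5, KRT6A, KRT17, EGFR and LAMB3, markers of basal mammary cells, were detected on each of the 8 arrays. Of the markers of other cells, PGR was on 0 arrays, ALB on 1, COL1A1 and PECAM1 on 5, ESR1 on 7 and PTPRC on 8. COL1A1 lay between -3.35 and -2.31 without p53 and at -3.21 on the array labelled p53+/+ 0 h. On the treated p53+/+ arrays it lay between -6.23 and -5.43. PECAM1 lay between -2.22 and -1.59, at -2.39 and between -6.04 and -4.77 on the same sets of arrays. The part of other cells in the results below was not tested. Of 10 spike-in probes, 6 were well above background on 7 arrays and 0 on the p53+/+ 48 h array.

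lincRNA probes were dimmer than coding probes on every array. Their median level lay between -4.01 and -3.61 on the 8 arrays, and that of 19224 coding probes between -1.07 and -0.99. Between 34.0 and 50.8% of all lincRNA probes were well above background on an array, against 62.5 to 74.2% of the coding probes and 0 to 1.62% of 308 negative control spots. Probe affinity is part of any such level, so levels of different probes do not rank their transcripts. On treated p53+/+ arrays the shares were 39.8, 34.0 and 39.8% at 12, 24 and 48 h, and on treated p53-/- arrays 46.9, 49.5 and 50.8%. The weakest signal that counted as well above background was also higher on the former, at -4.77 to -4.50 against -5.70 to -5.53 on the latter.

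**Figure D1:**
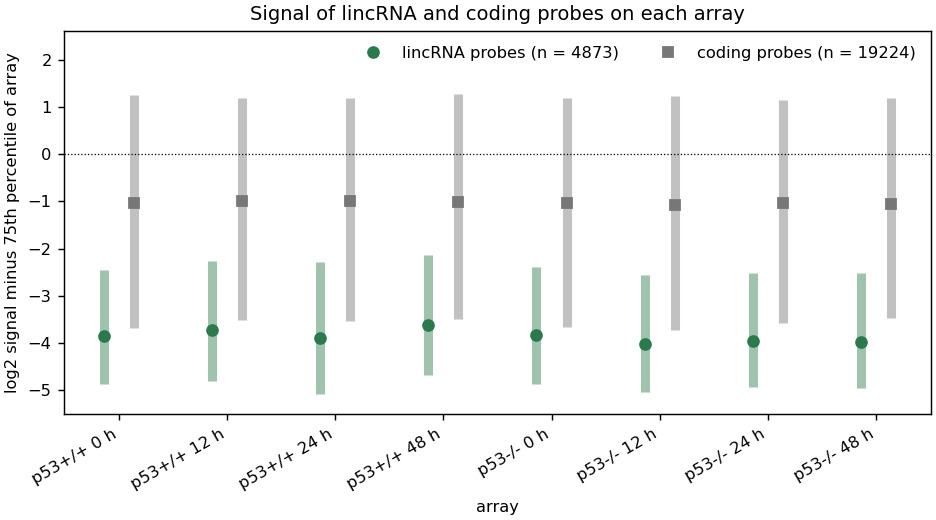
Log2 signal relative to the 75th percentile (vertical axis) of 4873 lincRNA probes and 19224 coding probes on each of the 8 arrays (horizontal axis); points are medians and bars run from the lower to the upper quartile over probes. The lincRNA medians lie between -4.01 and -3.61 and the coding medians between -1.07 and -0.99.

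Detection varied more among lincRNA probes than a single list implies. Of the members, 2504 were detected (well above background) on all 8 arrays and 571 on exactly 1, of which 180 were seen at 48 h in p53-/- cells alone and 86 on the array labelled p53+/+ 0 h alone. The 571 just inside the rule had a median highest level of -4.66 and the 3401 probes outside it one of -6.18. Of the members, 17 (0.349%, background over all probes tested 0.515%) were detected on all 3 treated p53+/+ arrays and on no treated p53-/- array, while 294 (6.03%, background 4.4%) were detected on all 3 treated p53-/- arrays and on no treated p53+/+ array. These counts carry the higher detection floor of the treated p53+/+ arrays. A technical SD was taken from the spread between spots of 1 probe on the same array, over 999 probes printed in 10 spots. For a difference of 2 arrays it came to 0.63 below a level of -5, 0.38 from -5 to -3, 0.17 from -3 to -1 and 0.10 above. It holds spot noise alone and no variation between arrays.

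The main comparison asked which lincRNA probes differed between treated p53+/+ and treated p53-/- cells. In a limma fit over the 6 treated arrays, in which the 3 times stand in for replicates, 444 members (9.11%) were higher in p53+/+ cells and 139 (2.85%) were lower at a Benjamini-Hochberg adjusted p under 0.05. Over all 28947 probes tested the shares were 10.6% higher and 7.4% lower, and over coding probes 11.3% and 9.22%. The share higher in p53+/+ cells thus lay near that of all probes, and the share lower was smaller. Among members on all 8 arrays, 300 (12.0%) were higher and 50 (2.0%) lower. The share over all probes detected on all 8 arrays was not taken, so these shares have no matching background. The median difference of the 444 was 1.16 on the log2 scale (quartiles 0.90 and 1.81) and that of the 139 was -1.37 (quartiles -1.84 and -1.09).

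The balance of higher and lower calls moved with the scaling of the arrays. It was 288 to 194 with median scaling, 319 to 163 with quantile normalization, 143 to 865 with no scaling and 1544 to 93 with normexp background correction. Shares over all probes were not taken under these settings, so the counts describe the settings and not lincRNA probes in particular. Treated p53+/+ arrays had a 75th percentile of 661.2 to 817.6 signal units and treated p53-/- arrays one of 1118.5 to 1198.8, so scaling raised the former. Without the 12, 24 or 48 h arrays, each with fewer arrays in the fit, 243, 24 and 228 members were called. The count was lowest without the 24 h arrays, and the cause was not tested.

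Detection of the called probes was uneven. Of the 139 lower members, 79 were on a treated p53-/- array and on no treated p53+/+ array. A further 1 was on no treated array, and 50 were on all 8. Of the 444 higher members, 300 were on all 8 arrays, and 48 were on a treated p53+/+ array and on no treated p53-/- array. The other way, 3 higher members were on a treated p53-/- array and on no treated p53+/+ array. Another 28 were on no treated array of either genotype, so that both means of those 28 lay at background. A probe detected in 1 genotype alone entered the test through the group where it was high, so its adjusted p is no further support and its size is given as a bound.

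The share of calls followed the level of the probe in one direction. Among members with a mean level under -5, 5.83% were higher in treated p53+/+ cells, and the share was 7.73, 11.8 and 15.9% from -5 to -3, from -3 to -1 and from -1 up. Coding probes at the same levels gave 7.73, 11.6, 13.7 and 11.0%. In the brightest class the lincRNA share was above the coding share, and in the other 3 below it. For lower calls the lincRNA share was 3.89, 2.34, 2.54 and 3.12%, below the coding share of 6.07, 9.89, 11.4 and 8.84% in each class.

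**Figure D2:**
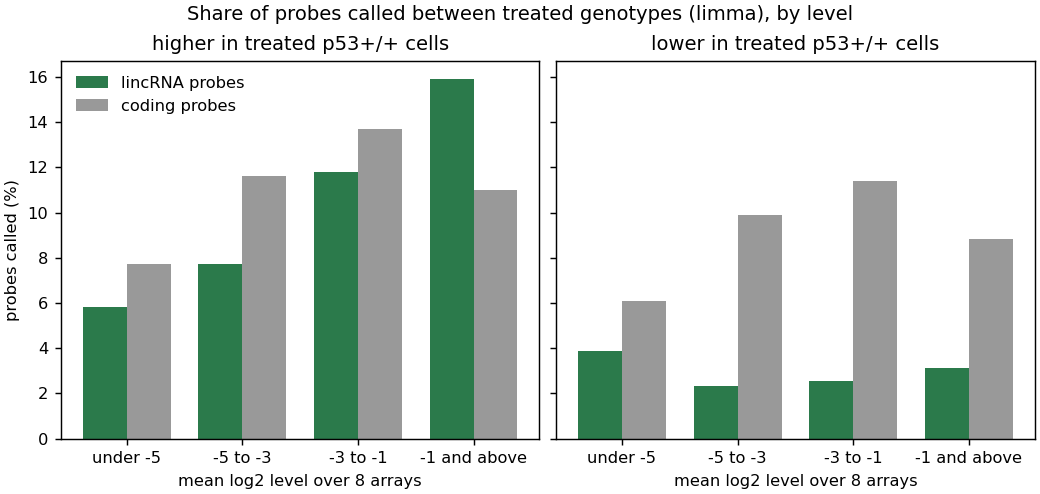
Percent of probes called higher (left) or lower (right) in treated p53+/+ cells by limma (vertical axis, from 0) in 4 classes of mean log2 level over the 8 arrays (horizontal axis), for lincRNA probes and coding probes. Higher calls run from 5.83 to 15.9% of lincRNA probes with level, and lower calls stay between 2.34 and 3.89%.

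By a rule of size instead of a test, 191 members were at least 2-fold higher in p53+/+ cells at all 3 times (background 5.71%) and 86 at least 2-fold lower (background 4.58%). The 191 had median differences of 1.92, 2.01 and 1.82 at 12, 24 and 48 h, and the 86 had -1.48, -2.03 and -2.16. The largest of the 3 differences fell at 12 h for 62, at 24 h for 68 and at 48 h for 61 of the higher members, and at 12 h for 15, at 24 h for 36 and at 48 h for 35 of the lower ones. Of 1253 higher coding probes, 563 had their largest difference at 24 h, and of 1109 lower ones 575 at 48 h.

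The lincRNA probes with the largest differences were bright in treated p53+/+ cells and weak or not well above background in the rest. ENST00000435913 read 0.35, 0.96 and 1.01 at 12, 24 and 48 h in p53+/+ cells. It was not well above background elsewhere, with -7.06 for the array labelled p53+/+ 0 h, and -7.14, -7.40, -7.42 and -7.56 from 0 to 48 h in p53-/- cells. It was at least 83.1-fold higher in treated p53+/+ cells (limma adjusted p = 5.36e-05, no further support as above). This bound was set by the weakest signals that counted as above background. The probe for ANKRD20A12P, a transcribed pseudogene of the ANKRD20A family, gave -0.20, 0.61 and 0.60 in treated p53+/+ cells and at most -7.23 elsewhere. It was at least 61.3-fold higher (limma adjusted p = 7.03e-05, likewise no further support). These 2 profiles differed by 0.11 (root mean square over 8 centred levels). Whether the 2 probes share sequence was not tested, and they cannot be counted as separate transcripts here.

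Other accessions were likewise detected in treated p53+/+ cells alone. TCONS_l2_00021644 gave -0.61, -0.60 and -0.90 there and was at least 29.8-fold higher. AK023519 had 2 probes, which gave -0.01, 0.38 and -0.12 and -0.17, 0.10 and -0.41 in treated p53+/+ cells, and neither was above background on any other array. The first was at least 51.6-fold and the second at least 43.5-fold higher, so the 2 probes of this transcript moved together. ENST00000418165 gave -2.46, 0.31 and -1.62, highest at 24 h, and was at least 20.4-fold higher.

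The remaining 3 probes of this group were also seen in p53-/- cells. TCONS_l2_00020645 read 2.46, 2.54 and 2.40 in treated p53+/+ cells against -7.84, -4.78 and -3.45 in treated p53-/- cells (difference 7.82 ± 1.02, SE over 3 against 3 arrays). Its 12 h level in p53-/- cells was not well above background, so the size of this difference is not fully measured. Its second probe differed less, with -2.81, -2.90 and -2.87 against -4.65, -4.67 and -5.12. THC2750781 read 2.82, 3.42 and 2.40 against -5.92, -3.80 and -2.14 (6.83 ± 0.89). Without p53 it read -5.02 at 0 h, was not well above background at 12 h, and was higher at 48 h than at 24 h. TCONS_l2_00021641 was detected on each array, at 2.76, 3.12 and 2.27 against -4.37, -3.42 and -2.39 (6.11 ± 0.51, adjusted p = 0.0011); the probe nearest to it in profile, at a distance of 0.25, was one for BST2, an interferon-inducible membrane protein. The treated genotypes did not overlap in these 8 probes, which the choice by the smallest of the 3 differences fixes.

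On the lower side the differences were smaller. LINC01085 was detected on the 4 p53-/- arrays only, at -3.89, -3.45, -2.84 and -3.25, and read -5.58 for the array labelled p53+/+ 0 h. Treated p53+/+ cells gave -6.70, -6.43 and -6.55. It was at least 2.73-fold lower (limma adjusted p = 0.000562, no further support as above). A further 3 probes, known by their own names alone (A_19_P00812592, A_19_P00812095 and A_19_P00800364), shared a profile with a low at 12 h in both genotypes: A_19_P00812592 gave -1.18, -4.25, -2.41 and -3.08 with p53 and -0.02, -1.08, 0.52 and -0.04 without it (-3.05 ± 0.58, adjusted p = 0.0163). The 3 lay within 0.33 of one another (root mean square), and whether they read 1 transcript cannot be told from the files.

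STEAP1B-AS1, an antisense transcript with 2 probes, was not well above background at 0 h in either genotype by one probe and read -4.40, -3.34 and -3.60 at 12, 24 and 48 h in p53-/- cells, while treated p53+/+ arrays read -6.76, -6.53 and -6.60. It was at least 1.8-fold lower in treated p53+/+ cells, its second probe gave at least 1.01-fold, and the call of the first was lost with a signal floor (adjusted p = 0.0516) and with normexp (0.11). THC2682619 rose in p53-/- cells from -4.83, a level not well above background, to -2.88, -1.77 and -1.82, so the size of this rise is not measured. It was detected at -3.82 on the array labelled p53+/+ 0 h. In treated p53+/+ cells it read -5.37, -4.83 and -4.92, at least 5.56-fold lower than in treated p53-/- cells. RNF139-DT, the divergent transcript of RNF139, and A_19_P00805180 were detected on both 0 h arrays and on no treated p53+/+ array, and were at least 1.57-fold and 2.16-fold lower. The call of RNF139-DT was lost with the floor (adjusted p = 0.111) and with normexp (0.211).

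**Figure D3:**
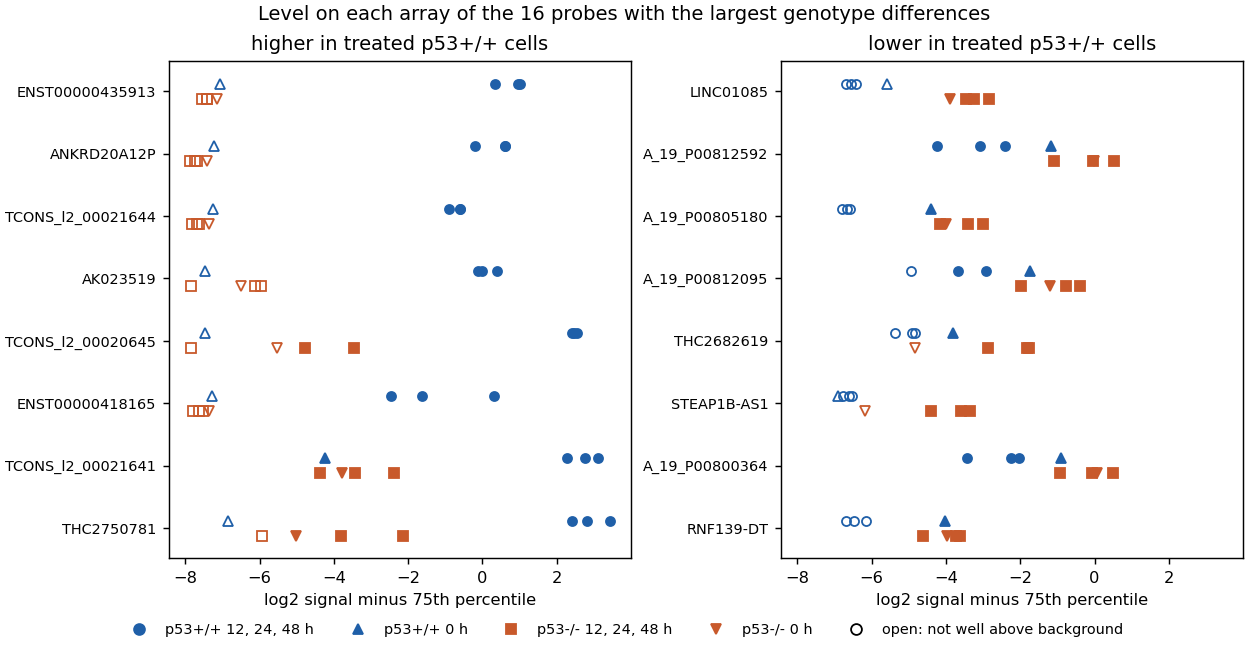
Log2 signal relative to the 75th percentile (horizontal axis) on each array of the 8 probes with the largest higher (left) and the 8 with the largest lower differences (right) between treated genotypes; p53+/+ in blue and p53-/- in orange, triangles for 0 h, open symbols where the probe was not well above background. ENST00000435913 lies between 0.35 and 1.01 on treated p53+/+ arrays and between -7.56 and -7.06 elsewhere.

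A list of 26 symbols of lncRNAs linked to p53 or well studied, written with earlier results of these data known, was read next. LINC-PINT and PURPL were each on it under 2 symbols. Of the 26 symbols, 16 had a probe named by accession and 10 had a lincRNA probe among the members. These were 30 probes: 12 were higher in treated p53+/+ cells (background 10.6%), 0 lower (background 7.4%), and 18 did not pass. Of the 12, 6 were probes of 1 transcript, LINC-PINT, so the 12 are not separate transcripts. With the list chosen in this way, its share is no test against the background. PURPL had 2 probes, both above background on 2 p53+/+ arrays, at 12 and 24 h, and nowhere else. They read -4.02, -3.01 and -5.07, and -4.40, -2.99 and -5.46, at 12, 24 and 48 h in p53+/+ cells and at most -6.37 on the p53-/- arrays. Both were thus highest at 24 h, and their bounds over the 3 times were 2.97-fold and 2.5-fold (limma adjusted p = 0.00721 and 0.0281, no further support as above). These bounds include 48 h levels that were not well above background, so they are not strict minima. The second probe lost its call with time as a block (adjusted p = 0.0648) and with no scaling (0.0522). Both probes lost theirs without the 12 h or the 24 h arrays (0.0555 to 0.189).

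LINC-PINT, a p53-induced transcript linked to Polycomb silencing, had 11 lincRNA probes, 9 of them members. Of the 9, 6 were higher in treated p53+/+ cells and 0 lower, with a median difference of 1.63 over the 9. Of the 6, 1 (A_19_P00321782) lay at background on all 6 treated arrays, and its call was lost with median, quantile and no scaling (adjusted p = 0.0691, 0.0724 and 0.399); 2 more lost theirs with no scaling (0.0937 and 0.0957). The probe with the largest difference, A_19_P00321361, read -2.26, -0.75, 0.23 and 0.36 with p53 and -1.23, -2.76, -1.89 and -1.90 without it, so the 2 courses ran apart after 0 h (2.13 ± 0.39, adjusted p = 0.0144). A_19_P00317560 alone among the 9 gave a difference near 0 (-0.01 ± 0.90), with a spread over the times that was wider than for the rest.

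NEAT1, the architectural RNA of nuclear paraspeckles, was higher by all 3 of its probes. The brightest spot read 1.64, 3.37, 3.88 and 3.51 with p53 and 2.85, 1.24, 2.28 and 2.26 without it, with no overlap of the treated arrays (1.66 ± 0.33, adjusted p = 0.0195). The other 2 gave 1.48 ± 0.31 and 1.84 ± 0.31. With no scaling the first 2 of these 3 no longer passed (adjusted p = 0.0644 and 0.0921). H19, an imprinted RNA, was higher by its 1 lincRNA probe, which read -2.32, -1.11 and -0.63 against -3.85, -3.40 and -3.01 (2.07 ± 0.46, adjusted p = 0.0266), and its other probe gave 2.35 ± 0.82 and did not pass.

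MALAT1, a nuclear RNA that lies beside NEAT1 in the genome, did not pass by any of 4 lincRNA probes, whose differences were 0.34 to 0.64 with SEs of 0.20 to 0.51 and turned negative for 3 of the 4 with no scaling. The 4 probes of HOTAIR, an RNA of the HOXC cluster, disagreed in sign, from -0.79 ± 0.46 to 1.33 ± 0.39, and none passed. The 3 of CRNDE gave -0.71 to -0.64 (adjusted p = 0.0985 to 0.135), and those of MEG3, LINC01088 and LINC00472 did not pass.

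**Figure D4:**
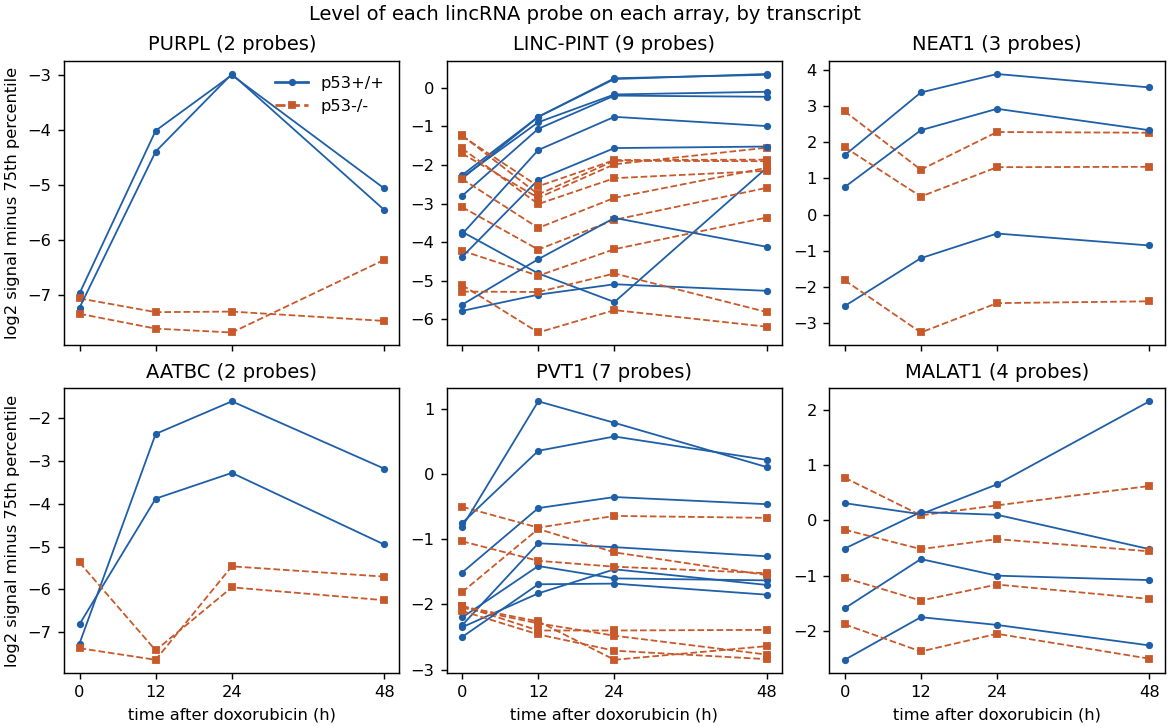
Log2 signal relative to the 75th percentile (vertical axis) against hours after doxorubicin (horizontal axis) for each member probe of 6 transcripts, with p53+/+ in solid blue and p53-/- in dashed orange lines; each point is 1 array. Both PURPL probes peak at 24 h in p53+/+ cells at -3.01 and -2.99, the 3 NEAT1 probes separate by genotype, and the MALAT1 lines overlap.

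Further named lncRNAs passed the test, and were picked out after their values were seen. AATBC, a transcript associated with apoptosis in bladder cancer, read -2.37, -1.61 and -3.18 by one probe in treated p53+/+ cells. It was at most -5.46 on the p53-/- arrays (at least 9.04-fold higher, limma adjusted p = 0.0119, no further support as above). Its second probe had a bound of 2.96-fold. FLJ16779 had 2 higher probes, one with a bound of 4.33-fold and the other higher by 1.74 ± 0.41. The probes with bounds of 2.96-fold and 4.33-fold were each well above background on 2 arrays, so these are not strict minima. Their calls are no further support either. NORAD, an RNA activated by DNA damage that binds Pumilio proteins, was higher by 1.33 ± 0.28 and 0.92 ± 0.24. LINC-ROR gave 1.23 ± 0.21. LITATS1, an RNA induced by TGF-β, was lower by 3 of 4 probes (-1.42 to -0.99), and CASC15 by -1.57 ± 0.36. Among lincRNA probes that carry coding accessions, MDM2, the ubiquitin ligase of p53, was higher by 2.57 ± 0.23 and its relative MDM4 by 0.96 ± 0.17, while 2 probes for NASP, a histone chaperone, were lower by -1.59 ± 0.22 and -1.11 ± 0.25.

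At least 5 members were found for 17 symbols, which allowed probes of 1 transcript to be compared. PVT1, the RNA next to MYC, was higher by 7 of 7 probes (median difference 0.98, from 0.74 to 1.87). LOC100294145 was higher by 5 of 7 (median 1.72) and ERVMER34-1, a gene derived from an endogenous retrovirus with a coding accession, by 3 of 6. LINC02987 was lower by 3 of 8 probes and IPW, an imprinted RNA of the Prader-Willi region, by 1 of 9, which was well above background on 1 array. With no scaling all 7 PVT1 probes kept a positive difference (median 0.38), as did 8 of 9 for LINC-PINT and 5 of 7 for LOC100294145, but 3 of 6 for ERVMER34-1, and with normexp correction 1 of 8 for LINC02987 and 4 of 9 for IPW were positive.

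Probes of 1 transcript did not always move as one. SNHG5, a host of small nucleolar RNAs, had 17 probes with differences from 0.58 to 1.13, of which 1 passed the test; with no scaling their median was 0.09 and 1 was negative. HCG18 had 12 probes from -1.17 to -0.32, and none passed. SNHG11 had 1 higher probe (1.36) among 6 whose median was -0.25, and the 13 probes of GARS1-DT ran from -0.75 to 1.42 with none past the test. Probes of 1 transcript share a target and are not replicates of the condition.

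**Figure D5:**
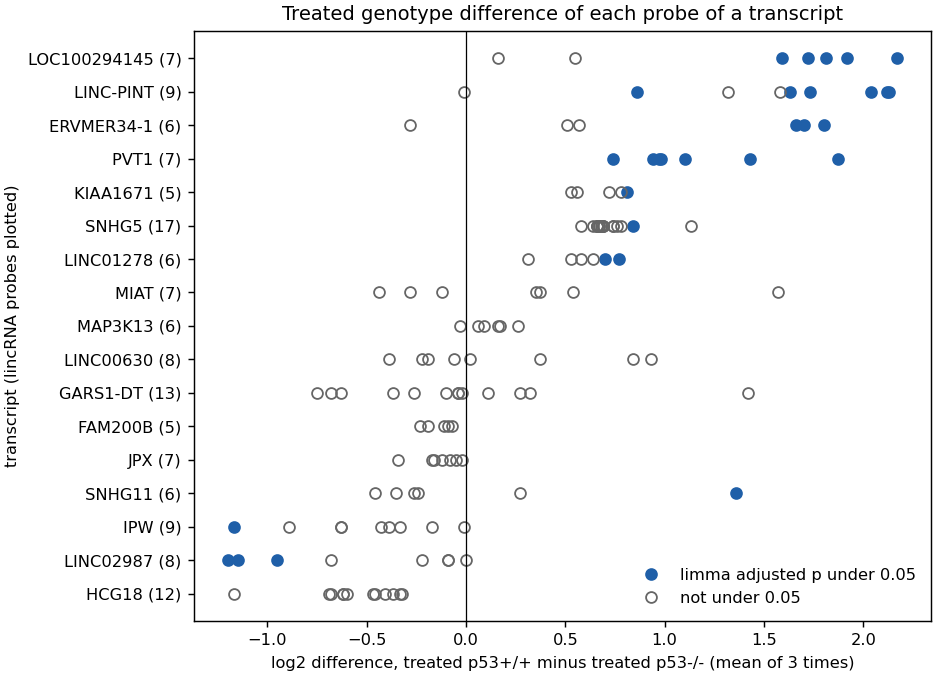
Log2 difference of treated p53+/+ minus treated p53-/- cells (horizontal axis, mean over 3 times) for every member probe of the 17 symbols with at least 5 members (vertical axis, number of probes in brackets); filled points had a limma adjusted p under 0.05. The 7 PVT1 probes are filled and lie from 0.74 to 1.87, and the 17 SNHG5 probes lie from 0.58 to 1.13 with 1 filled.

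As a whole the lincRNA probes were shifted a little between genotypes. Their median difference at 12, 24 and 48 h was 0.23, 0.02 and 0.40, against 0.06, -0.04 and 0.10 for coding probes. With no scaling the 3 lincRNA medians were -0.22, -0.47 and -0.46 and those of all probes tested -0.32, -0.50 and -0.67, so the sign is set by the scaling, while lincRNA probes stood above all probes under both. In p53-/- cells the median change from 0 h was -0.16, -0.14 and -0.18, against -0.01, 0.00 and 0.06 for coding probes. The sets in these comparisons were not matched by level, and lincRNA probes were dimmer than coding probes. The detection floor also differed between the treated genotypes, as given above. Whether dim probes of other kinds shifted alike was not tested.

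In p53-/- cells few lincRNA probes responded to doxorubicin. With 1 array a time there was no test, and by the size rule 77 members rose at least 2-fold at all 3 times (1.58%, background 2.64%) and 70 fell (1.44%, background 1.84%). In p53+/+ cells 218 rose (4.47%, background 7.94%) and 192 fell (3.94%, background 5.78%). From the p53-/- 0 h array as baseline these were 225 (background 7.95%) and 145 (background 5.66%). All of these shares lay below those over all probes tested. Among members on all 8 arrays 17 rose and 25 fell in p53-/- cells, and 87 rose and 37 fell in p53+/+ cells. No matching share over all probes on all 8 arrays was taken.

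In both genotypes 12 members rose (background 0.567%) and 12 fell (background 0.428%). WAKMAR2, an RNA of keratinocyte wound healing, came first by the smallest of its 6 rises (2.14), with the p53-/- 0 h level not well above background. It read -3.77 on the array labelled p53+/+ 0 h, then -1.64, -0.97 and -1.01, and from -6.02 to -3.40, -2.49 and -0.80 in p53-/- cells. Its second probe went from -4.01 to -1.87, -1.29 and -1.54 and from -5.78 to -3.88, -2.50 and -1.08. Both probes kept climbing to 48 h without p53 and levelled off after 24 h in p53+/+ cells, and at 48 h the 2 genotypes stood close. ENST00000456816, not well above background on either 0 h array, rose more than WAKMAR2 in p53+/+ cells (2.88, 3.81 and 3.34 against 2.14, 2.80 and 2.76) and was higher there than in p53-/- cells (1.62 ± 0.32, adjusted p = 0.0186, and 0.0617 with no scaling). Probes with the coding accessions of NOL4L and of STMN1, the microtubule regulator stathmin, also rose at all 3 times in both, by as little as 1.02 for NOL4L, and for STMN1 1 of 3 probes met the rule, at its limit.

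HIPK2, a kinase that acts on p53 after DNA damage, fell in both genotypes by a probe that read -0.54, -1.95, -2.67 and -2.23 with p53 and -0.10, -1.13, -1.27 and -1.99 without it. ENST00000609902 fell from -3.62 to at most -5.71 and from -1.54 to at most -3.71. ENST00000609207 fell likewise and was at least 1.44-fold lower in treated p53+/+ cells (adjusted p = 0.00418), a call lost with the floor (0.0871) and with normexp (0.215). Neither was well above background on a treated p53+/+ array, so the size of their falls there is not measured. AK129820 was well above background at 0 h alone in both genotypes, and ENST00000321521 on both 0 h arrays and at 12 h in p53-/- cells, so their later levels are only bounds as well.

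The largest falls in p53-/- cells rested on a single array. A_19_P00805364, A_19_P00318675 and ENST00000517491 were well above background on the p53-/- 0 h array alone, at -1.89, -3.20 and -4.00, and were not above background on the other 7. The fourth, ENST00000587247, was detected on every array and fell from -1.86 to -4.87, -4.75 and -4.38, while p53+/+ arrays stayed between -2.97 and -2.02.

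Whether the response to doxorubicin differed between genotypes was tested as an interaction over the 8 arrays with 4 residual degrees of freedom. Each 0 h arm was 1 array, assumed to vary like the treated times. Of the members, 21 had a higher (0.431%, background 0.94%) and 28 a lower response (0.575%, background 0.746%) in p53+/+ cells; 609 had an unadjusted p under 0.05. Of the 28, 18 were detected by the array labelled p53+/+ 0 h alone, and of the 21, 4 were on the p53-/- 0 h array alone, so that these 22 calls rest on 1 spot each. With time as a block 7 members passed. Of the others, ENST00000435913, ANKRD20A12P, TCONS_l2_00021644 and AK023519 passed, as did the MDM2 probe (limma adjusted p = 0.0289). The first 4 were well above background on the treated p53+/+ arrays alone, so their calls are no further support. PURPL, LINC-PINT, NEAT1 and PVT1 did not pass as an interaction (adjusted p = 0.0886 or more).

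The 5 probes with the highest signal, an order of probes and not of transcripts, were detected on every array. ENST00000579933 read 7.46 to 8.16 on the 8 arrays, A_19_P00812158 7.29 to 8.15, A_19_P00805216 6.83 to 7.96, A_19_P00802027 6.12 to 7.21 and a probe with the coding accession of H3-3A, histone H3.3, 6.29 to 6.84. None was saturated on any array. A_19_P00805216 passed as higher in treated p53+/+ cells (0.86 ± 0.18, adjusted p = 0.0216), as did A_19_P00812158 (0.68 ± 0.17, adjusted p = 0.038), and the other 3 did not. Both calls were lost with median, quantile and no scaling (adjusted p = 0.0588 to 0.728) and with time as a block (0.0514 and 0.0742).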

How the data were processed

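Total RNA of 8 MCF10A samples was labelled with Cy3 and hybridised to 8 single-colour Agilent arrays. The authors deposited each array's scanner output (Agilent Feature Extraction 10.7.3.1 per the labels and hg19 design), from which the processed signal was used, a linear intensity after background correction. The deposited series matrix repeated these 503808 values (equal within a relative 1e-05). Normexp correction used the deposited median spot and background intensity. No normalization between arrays is given in the sources used here.

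From these, log2 processed signal minus that of the array's 75th percentile was averaged over unflagged spots (14 probes lost, 4 of them lincRNA probes). The 28947 probes detected on 1 array or more entered limma 3.58.1 in R 4.3.3 (lmFit, eBayes), p-values were Benjamini-Hochberg adjusted over all of them, and time points stood in for replicates. Separate cultures are not given, and p-values measure the spread between these arrays. Size rules asked for 2-fold at all 3 times. For a genotype without any array above background, a fold was bounded by the weakest signal above background on each array. Members and gene lists were chosen with earlier results of these data known. Named probes were, per accession, the 8 higher and 8 lower with the largest smallest genotype difference, 5 rises and 5 falls in both genotypes, 4 of each in p53-/- cells, the 5 brightest, and the list. Alternatives were other scalings, filters, a floor, normexp (offset 50), accessions in place of probes, left-out times, time as a block, a 3-fold rule and, added after seeing the data, no p53+/+ 48 h array. One marker gene is not reported here. The fits were tested on simulated data. Symbols came from RefSeq (GRCh38.p14) by accession. The number of arrays limits precision. Python 3.11.15, numpy 2.4.6, pandas 2.3.3 and matplotlib 3.10.9 were used.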

Additional observations from a re-analysis of the deposited data

Results flagged for a closer look

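The interaction term of the limma fit, the difference between genotypes in the response to doxorubicin, had an adjusted p under 0.05 for 49 lincRNA probes: 0.431% were higher and 0.575% lower in p53+/+ cells, below the 0.94 and 0.746% over all probes tested. Each 0 h arm was 1 array, 22 of the calls rest on 1 spot at 0 h, and 7 probes passed with time as a block. Among the named probes this term was 6.56 for TCONS_l2_00021641, which was detected on every array and higher in treated p53+/+ cells. It was 8.16 for ENST00000435913, 7.92 for ANKRD20A12P, 6.91 for TCONS_l2_00021644 and 7.70 for AK023519. These were well above background on the treated p53+/+ arrays alone and entered the test through them. The sizes thus rest on background readings elsewhere, and the calls are no further support. The term was 5.88 for A_19_P00805364, 5.18 for A_19_P00318675 and 4.02 for ENST00000517491, which were well above background on the p53-/- 0 h array alone, 1 spot each. The array labelled p53+/+ 0 h, the baseline of the p53+/+ response, read MDM2 at -1.66, near the p53-/- level. It read CDKN1A at -1.14, against -2.97 on the p53-/- 0 h array. No group held enough arrays for a test of outliers.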

How the results depend on the processing

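Of 583 lincRNA probes called between treated genotypes, the number was 1008 with no scaling, 1637 with normexp correction, 2353 with no filter on dim probes and 1466 with a signal floor, and 24 to 243 when 1 time was left out, with fewer arrays in the fit. Interaction calls numbered 49, and 123, 92 and 81 with no scaling, normexp and the floor, 7 with time as a block and 0 to 5 with 1 time left out (limma, 398 to 625 probes at an unadjusted p under 0.05). The mean of the 3 median genotype differences was 0.22, 0.08 with median scaling, 0.12 with quantile normalization, -0.38 with no scaling, 0.44 with no filter and 0.12 to 0.31 with 1 time left out. In p53-/- cells 147 members rose or fell by the size rule, against 22 with normexp, 42 of those on all 8 arrays, 271 with no filter, 81 with the floor, 39 at 3-fold and 200 to 334 with 1 time left out. In p53+/+ cells there were 410, against 131, 124, 254 with the floor, 192 at 3-fold and 515 to 562. Rises outnumbered falls in p53-/- cells by 175 to 27 with no scaling and were 2 to 20 with normexp; in p53+/+ cells these were 129 to 335 and 97 to 34; 42.9% of interaction calls were higher, and 13.0 and 87.0% with these settings and 30.2% with quantile normalization. With time as a block 470 probes differed between treated genotypes. Without the p53+/+ 48 h array 470 probes differed between treated genotypes and 49 had an interaction. The cause of these changes was not tested, and shares over all probes were not taken under these alternative settings.

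No named probe that passed the treated comparison changed direction; calls were lost for 30 probes without the 24 h arrays, 17 without 48 h, 9 without 12 h, 11 with no scaling, 6 without the p53+/+ 48 h array, 5 with quantile normalization, 5 with normexp, 4 with the floor, 3 with median scaling and 3 with time as a block. Among those that did not, signs turned for MALAT1 (-0.26, -0.21 and -0.18) and one HOTAIR probe (-0.36) with no scaling, for MEG3 (0.26 with normexp, 0.13 without 12 h), for one LINC-PINT probe (0.42 with normexp, 0.35 with the floor, 0.67 without 24 h, and -0.65 without 48 h, where its sign held) and for the LINC00472 probes (-0.44 with no scaling, -0.18 with quantile normalization, -0.16 without 12 h, -0.27 without the p53+/+ 48 h array, and 0.39, 0.52 and 0.12 with normexp, the floor and without 48 h, and -0.39 without 24 h, where the sign held). The smallest fall of ENST00000321521 became 0.06 with normexp.

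Signal over background limits these values: below a level of -5 the technical SD of a difference was 0.63, so smaller differences of dim probes lie within the spot noise.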
